A study of Rattus norvegicus with 6 samples.

Results

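Sprr1a, Lce1f, Tgm1, Cldn4, Cldn7 and Ptprh, 6 genes best known from epithelia and skin, were examined in rat dorsal root ganglia after nerve injury. They were chosen by name from 18696 genes with group averages, because their averages were far higher in injured than in sham ganglia. That difference is therefore described below with no test. RNA was sequenced from ganglia of SD rats in 6 libraries. The 3 SNI libraries are from spared nerve injury, an operation on the sciatic nerve that ties and cuts its tibial and peroneal branches and leaves the sural branch whole. The 3 sham libraries are from rats whose nerve was laid bare and the wound closed. The sources used here do not give sex, age, the time after surgery, the spinal level or the side, nor whether each library came from its own animal, so differences are set against a spread that may be technical. Values are in TPM, the transcripts of a gene as a share of all transcripts of a library, which corrects for gene length. TPM was given in each library for 4 of the 6 genes (Lce1f, Tgm1, Cldn4 and Ptprh) and as the authors' average per group, without error, for Sprr1a and Cldn7.

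The cornified envelope is the tough protein shell that keratinocytes build under their membrane as skin hardens. Small proline-rich proteins such as Sprr1a and late cornified envelope proteins such as Lce1f are its building blocks, and transglutaminase 1 (Tgm1) joins them by covalent bonds. Claudins seal the gaps between neighbouring epithelial cells at tight junctions. In the peripheral nervous system of rodents Sprr1a is known apart from skin, as a gene that sensory neurons switch on after their axons are cut and that promotes axon growth.

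Group averages of all genes summed to 18.6 M reads in SNI and 18.6 M reads in sham, and the depth of a single library is unknown. The totals are nearly equal, the sources used here do not say if the counts had been scaled, and the counting intervals take the values as reads. Of 13 sensory neuron markers all had averages of at least 46.3 TPM in SNI and 58.4 TPM in sham. Markers of axon injury stood apart between the groups: 20 of 21 were in the authors' deposited table of higher genes, against 3.63% of all genes with averages, and the median log2 ratio of averages of the list was 2.49. Erythrocyte markers were higher too (7 of 8 in that deposited table from the authors, median log2 ratio 1.63), as were macrophage markers (8 of 12, median 1.23), while the median over all genes was 0.017. These lists were drawn up with earlier results of these data known, so their shares describe the samples and are not a check. The part of blood and macrophage RNA in the differences below was not tested.

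The promoter windows of a pair of the genes are shown because they hold a binding sequence of the AP-1 and ATF transcription factors, a class that includes Atf3 and Jun of the axon injury list. RefSeq promoter sequences (assembly GRCr8) were found for Sprr1a, Lce1f, Tgm1, Cldn7 and Ptprh and not for Cldn4. Each window is the 250 bases before the annotated start, written 5′ to 3′ on the strand of the gene, with the matches in capitals. The Sprr1a window lies on the minus strand at chr2:180752626-180752875 and that of Cldn7 on the plus strand at chr10:55188420-55188669.
Sprr1a: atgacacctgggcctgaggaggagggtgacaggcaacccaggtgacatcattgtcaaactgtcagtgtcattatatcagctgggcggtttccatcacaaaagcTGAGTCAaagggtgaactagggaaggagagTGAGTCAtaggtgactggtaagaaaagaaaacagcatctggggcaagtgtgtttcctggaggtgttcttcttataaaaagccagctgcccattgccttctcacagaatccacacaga
Cldn7: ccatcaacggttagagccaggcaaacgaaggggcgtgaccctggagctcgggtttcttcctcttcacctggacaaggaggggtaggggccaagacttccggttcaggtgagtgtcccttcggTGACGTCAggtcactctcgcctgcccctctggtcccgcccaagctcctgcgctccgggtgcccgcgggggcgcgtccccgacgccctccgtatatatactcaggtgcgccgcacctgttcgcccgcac

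The capitals in the Sprr1a window are a pair of matches to the AP-1 letters TGANTCA, 147 to 141 and 117 to 111 bases before the start. A TATA box (TATAAA) lies 46 to 41 bases before the start. The capitals in the Cldn7 window are 1 match to the CRE letters TGACGTCA, 128 to 121 bases before the start. The AP-1 and CRE letters read the same on both strands, and no match of one overlapped a match of the other in these windows. At least 1 AP-1 match was present in 6.34% of 33469 rat promoter windows of this length and in 5.00% of the 16212 windows whose genes had group averages. The matching shares were 1.59% and 2.32% for the CRE letters, and 12.9% and 8.49% for the TATA letters on either strand. The Lce1f, Tgm1 and Ptprh windows held none of these letters, and none of the 5 windows held TTCNNNGAA, the STAT letters (7.67% of all windows). Of 593 windows of the authors' higher genes, 10.5% held an AP-1 match and 2.19% a CRE match. Of 16 windows of the axon injury list, 1 held an AP-1 match and 0 a CRE match. Such a match describes the sequence and is not evidence of binding.

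Sprr1a (NCBI Gene ID 499660) had the highest level of the 6 in SNI ganglia. The authors' average was 41.8 TPM in SNI and 0.0933 TPM in sham. It ranked 1 among the 18696 genes with averages by the ratio of the averages. In the order of all genes by level, it stood at percentile 77.4 in SNI and at percentile 6.33 in sham. The sham value rests on an average of 0.667 reads, which is 2 reads over the 3 libraries, against 901 reads over the 3 SNI libraries. The ratio of these reads was 450.5, with a 95% exact counting interval from 124 to 3726. This interval and those below cover counting error only, not the spread between libraries, and reads are not independent molecules. They also do not allow for the choice of the genes by these averages, nor for the lack of genes at 0 in a group. Their nominal 95% therefore does not hold, and they only describe how few the sham reads are.

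Lce1f (Gene ID 499663), the other envelope protein, had 26.42, 24.93 and 22.36 TPM in the SNI libraries, against 0.35, 0 and 0 TPM in the sham libraries. Every SNI library lay far above every sham library, and the sham signal came from 1 library only. Its mean was 24.6 ± 2.05 TPM in SNI and 0.117 ± 0.202 TPM in sham (SD, n = 3 each). The reads behind it summed to 431 in SNI and 2 in sham, a ratio of 215 (95% exact counting interval 59.3 to 1785). Lce genes form a family of similar neighbours, so reads may have been shared among copies and the value of any single copy is uncertain.

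Tgm1 (Gene ID 60335), the enzyme that joins envelope proteins, had 28.49, 27.49 and 27.03 TPM in the SNI libraries, against 0.62, 0.68 and 0.72 TPM in the sham libraries. The groups did not overlap, and unlike the preceding pair of genes it was detected in every sham library. Its mean was 27.7 ± 0.746 TPM in SNI and 0.673 ± 0.0503 TPM in sham (SD, n = 3 each). It had the best read support in sham of the 6 genes, with 2164 reads in SNI and 79 reads in sham. The ratio of reads was 27.4 (95% exact counting interval 21.9 to 34.7), below the ratio of average TPM, 41.1.

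Cldn4 (Gene ID 304407), a claudin of epithelial tight junctions, had 18.59, 19.38 and 20.7 TPM in the SNI libraries, against 0.32, 0.24 and 0.31 TPM in the sham libraries. Again the groups lay far apart. Its mean was 19.6 ± 1.07 TPM in SNI and 0.29 ± 0.0436 TPM in sham (SD, n = 3 each). The reads summed to 958 in SNI and 14.04 in sham, a ratio of 68.4 (95% exact counting interval 40.6 to 126).

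Cldn7 (Gene ID 65132), another epithelial claudin, was the lowest of the 6, at an average of 2.06 TPM in SNI and 0.0333 TPM in sham. Only 1 read over the 3 sham libraries and 66 reads over the 3 SNI libraries lie behind it. The ratio of reads was 66, and its 95% exact counting interval, 11.4 to 2646, was wide. Its SNI level lay at percentile 27.5 of all genes, so it was a weakly expressed gene in SNI as well as in sham ganglia.

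Ptprh (Gene ID 171125) encodes a receptor-type tyrosine phosphatase, an enzyme at the cell membrane that removes phosphate from tyrosines and is best known from gut epithelium. It had 12.27, 13.61 and 13.87 TPM in the SNI libraries, against 0.26, 0.28 and 0.16 TPM in the sham libraries. All SNI values lay above all sham values. Its mean was 13.25 ± 0.859 TPM in SNI and 0.233 ± 0.0643 TPM in sham (SD, n = 3 each). The reads summed to 1535 in SNI and 22 in sham, a ratio of 69.8 (95% exact counting interval 45.9 to 112).

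**Figure D1:**
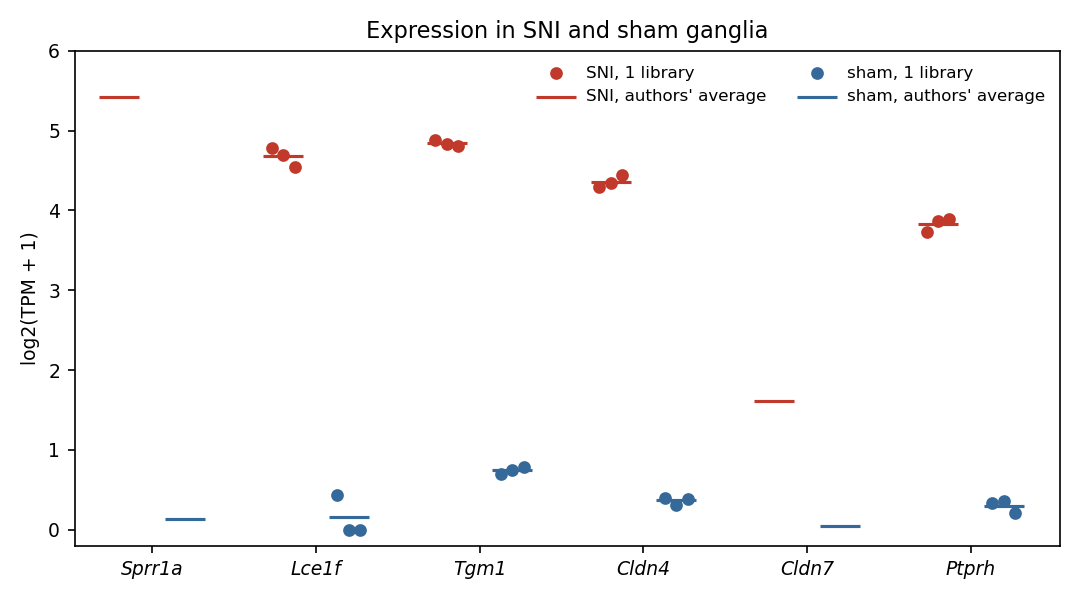
Expression of the 6 genes as log2(TPM + 1), with SNI in red on the left and sham in blue on the right of each gene. Points are single libraries, and horizontal bars are the authors' averages, which stand alone for Sprr1a and Cldn7. Every sham value lies under 1 on this scale, and in SNI all genes but Cldn7 lie above 3.

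**Figure D2:**
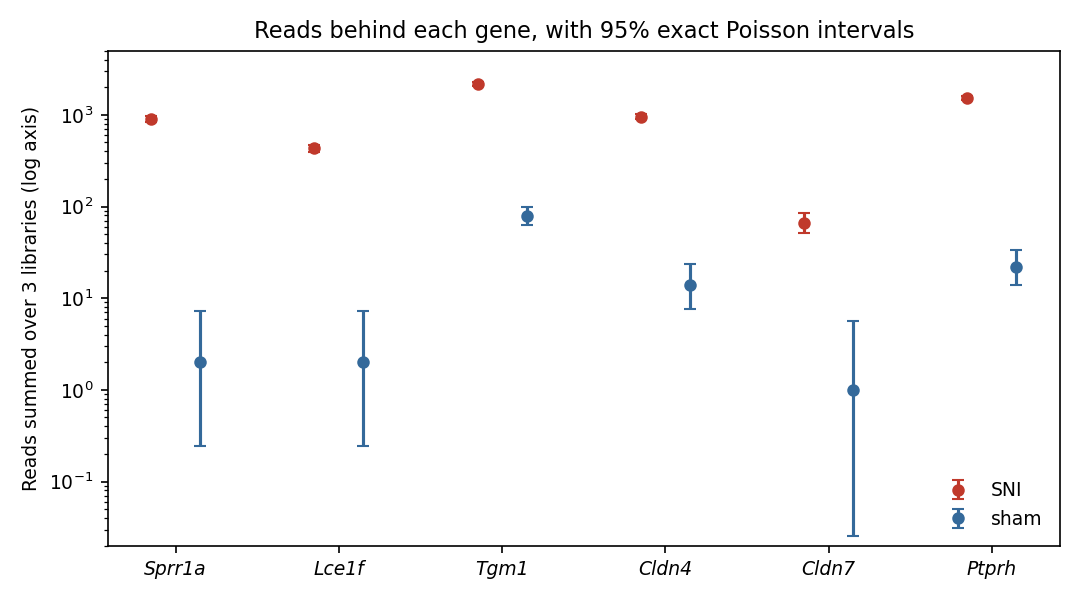
Reads summed over the 3 libraries of each group (log axis), SNI left of sham, with 95% exact Poisson intervals. Sprr1a, Lce1f and Cldn7 rest on 2, 2 and 1 reads in sham, whereas Tgm1 has 79. The intervals do not allow for the choice of the genes by these averages.

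All 6 genes were in the authors' deposited table of higher genes, a table that held 3.63% of the genes with averages, but this is the contrast by which they were chosen. In that deposited table of the authors, Cldn4 and Cldn7 were among the 6 genes given the KEGG pathway name Tight junction, with Jun, Hcls1, Was and LOC100909441 as the others. The authors' deposited table gave no pathway to Sprr1a, Lce1f, Tgm1 or Ptprh. By ratio of average TPM, Lce1f ranked 4, Cldn4 ranked 14, Cldn7 ranked 18, Ptprh ranked 21 and Tgm1 ranked 29 among genes with averages. Every gene with averages was above 0 in both groups, so genes at 0 in a group could not enter this order. Of the 699 genes in the authors' deposited table of higher genes, 678 had averages. The ranks of Sprr1a, Lce1f and Cldn7 rest on 2, 2 and 1 reads over the sham libraries. A ratio of at least 4 was found for 2.12% of genes.

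Within SNI ganglia the order of levels was Sprr1a, Tgm1, Lce1f, Cldn4, Ptprh and Cldn7. The lowest Tgm1 value (27.03 TPM) lay just above the highest Lce1f value (26.42 TPM), so these neighbours in the order were close, whereas Lce1f, Cldn4 and Ptprh had ranges apart from each other. In sham the order differed, with Tgm1 the highest and Cldn7 the lowest. Tgm1 varied least between SNI libraries, with a coefficient of variation of 2.70%, against 5.45% for Cldn4, 6.48% for Ptprh and 8.36% for Lce1f. Among 471 genes with an SNI mean of 10 to 40 TPM the median was 4.48%, with quartiles at 2.83% and 6.32%. The Lce1f value lay above the upper quartile and the Tgm1 value below the lower one. Genes were matched by TPM and not by reads, which averaged 144 for Lce1f and 721 for Tgm1 in SNI. Counting error was thus not matched, and it was not separated from other spread. The library with the most Lce1f and Tgm1, SNI replicate 1, had the least Cldn4 and Ptprh.

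Tgm1 also differed between the groups in its reads per TPM, a quantity that follows the length of the transcripts to which the reads were assigned. It had 26.1 reads per TPM in SNI and 39.1 reads per TPM in sham, a ratio of 0.667. Of 14316 genes with at least 20 reads on average in both groups, 95% lay between 0.971 and 1.04, and Tgm1 was number 3 from the lowest. Tgm1 averaged 26.3 reads in sham, near the minimum of 20, and it was not set against genes of like read number. No spread over libraries can be given for its ratio, since reads were averaged per group. The 2 envelope proteins gave closer values, at 7.19 and 7.14 reads per TPM in SNI and sham for Sprr1a and 5.85 and 5.71 for Lce1f, as did Cldn4 at 16.3 and 16.1. Cldn7 had 10.7 reads per TPM in SNI and 10 in sham, on 1 read over the sham libraries. Ptprh differed the other way, with 38.6 reads per TPM in SNI and 31.4 in sham, on an average of 7.33 reads in sham, under the minimum of 20. The higher level of Tgm1 in SNI was present in both units, and its size depended on the unit.

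**Figure D3:**
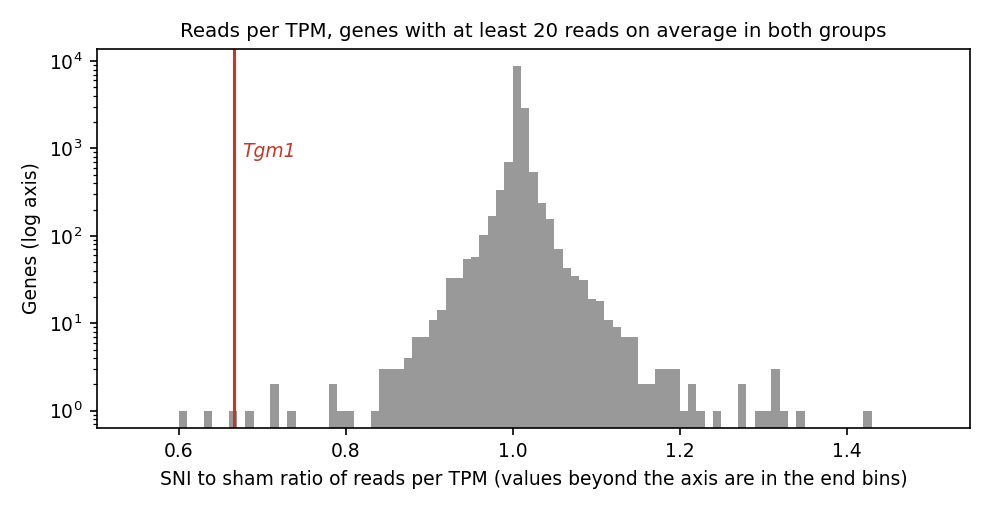
SNI to sham ratio of reads per TPM for the 14316 genes with at least 20 reads on average in both groups (gene number on a log axis). The red line marks Tgm1 at 0.667, far to the left of the bulk of genes near 1.

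Of the epidermal differentiation complex, the gene cluster that holds Sprr1a and Lce1f, only listed genes with averages were analysed here. Beside Sprr1a and Lce1f these were 8, and all 8 lay under 1 TPM in SNI and in sham, and 0 were in the authors' deposited tables of higher or lower genes. Loricrin (Lor), the main envelope protein of skin, averaged 0.26 TPM in SNI and 0.347 TPM in sham, and involucrin (Ivl), an envelope scaffold protein, 0.02 and 0.103 TPM. Filaggrin (Flg), which bundles keratin, averaged 0.10 TPM in SNI and 0.05 TPM in sham, Prr9 0.14 and 0.237 TPM, and trichohyalin (Tchh) 0.23 and 0.223 TPM. The median log2 ratio of these 8 was −0.02. The log2 ratio adds 1 TPM to both averages, which holds genes as low as these near 0 whatever their fold. Without it the ratios of averages ran from 0.194 (Ivl) to 2 (Flg), on averages of at most 16.3 reads (Lor in sham). Whether these genes changed cannot be read from such values. In the gene order of GRCr8, 10 protein-coding genes lie between Sprr1a and Lce1f. Averages were given for 2 of them, Ivl and the uncharacterized LOC103691634, which had 1.75 TPM in SNI and 0.193 TPM in sham on an average of 5.93 and 0.667 reads.

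Of 18 other transglutaminase and envelope scaffold genes, 1 was in the authors' deposited table of higher genes and 1 in that of lower genes, where 3.63% and 0.695% of all genes stood. Their median log2 ratio was −0.02, but 9 of the 18 lay under 1 TPM in both groups, where the added 1 TPM holds ratios near 0. The higher one, Abca12, a lipid transporter of the skin barrier, averaged 0.567 TPM in SNI and 0.0633 TPM in sham. Values in each library were given for 3 of these genes, and these were tested with limma on log2(TPM + 1) across 1596 genes, where 32.0% of genes were called higher and 29.2% lower at a Benjamini-Hochberg adjusted p under 0.05. Desmoplakin (Dsp), which anchors keratin filaments at desmosomes, fell to 1.52 ± 0.106 TPM in SNI, against 3.85 ± 0.494 TPM in sham (n = 3 each, log2 fold change −0.94, SE 0.11, limma adjusted p = 8.1e-05). F13a1, a transglutaminase of blood clotting, fell to 3.8 ± 0.149 TPM in SNI, against 5.35 ± 0.843 TPM in sham (limma adjusted p = 0.011). Suprabasin (Sbsn) had 12.43, 12.46 and 10.03 TPM in SNI, against 10.12, 5.94 and 5.03 TPM in sham, so that the groups overlapped. It passed with limma adjusted p = 0.013, and the call was lost after quantile normalization (limma adjusted p = 0.063) and without sham replicate 2 (limma adjusted p = 0.0503). Plakoglobin (Jup), a junction protein, was the most abundant of the list at 227.6 TPM in SNI and 204.7 TPM in sham, followed by the protease inhibitor Cst6 at 27.95 and 23.96 TPM. The transglutaminase gene Tgm7l1 averaged 0.573 TPM in SNI and 0.187 TPM in sham.

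Among 32 other tight junction genes, 20 had a lower and 10 a higher average in SNI, with a median log2 ratio of −0.05. Under 1 TPM in both groups, where the added 1 TPM holds ratios near 0, lay 10 of the 32. The authors' deposited tables held 1 as higher, Ildr2, a protein of the angulin family of tricellular junctions (2.28 TPM in SNI and 0.57 TPM in sham), and 1 as lower, Cldn11. Of all genes with averages, 3.63% stood as higher and 0.695% as lower. Both claudins of the list with values in each library fell. Cldn11, a claudin of central myelin and of the arachnoid barrier, had 19.52, 18.92 and 18.7 TPM in SNI, against 43.63, 40.85 and 38.92 TPM in sham (log2 fold change −1.07, SE 0.06, limma adjusted p = 5.1e-07). Cldn5, the claudin of endothelium, stood at 49.9 ± 1.22 TPM in SNI and 57.6 ± 4.56 TPM in sham (n = 3 each, log2 fold change −0.20, limma adjusted p = 0.021). The Cldn5 call was lost without SNI replicate 2, SNI replicate 3 or sham replicate 3 (limma adjusted p = 0.059, 0.074 and 0.077). Cldn19, the claudin of Schwann cells, averaged 60.3 TPM in SNI and 96.5 TPM in sham, Cldn12 18.8 and 11.3 TPM, and Cldn23 3.21 and 1.63 TPM. Cldn4 was thus at 0.29 TPM in sham, far under the main claudins of the ganglion, and at 19.6 TPM in SNI it was close to Cldn11 and Cldn12 there.

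Among 20 other receptor-type phosphatases, 3 were in the authors' deposited table of higher genes and 0 in that of lower genes. Of all genes with averages, 3.63% and 0.695% stood there. The median log2 ratio of the 20 was 0.07. Ptprc, the leucocyte antigen CD45, rose to 7.13 ± 0.475 TPM in SNI, against 2.45 ± 0.374 TPM in sham (n = 3 each, log2 fold change 1.24, SE 0.11, limma adjusted p = 8.6e-06). Ptpro averaged 20.7 TPM in SNI and 10.1 TPM in sham, and Ptprt 21.5 and 9.56 TPM. Ptpru averaged 2.72 TPM in SNI and 4.66 TPM in sham. The most abundant, Ptprn of neuronal secretory vesicles, averaged 336.9 TPM in SNI and 225.5 TPM in sham, and Ptpra averaged 132 TPM in SNI and 119.9 TPM in sham.

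The label of epithelial genes was checked against markers of epithelial cells. Of 13 keratinocyte markers with averages, 9 lay under 1 TPM in both groups, and the list summed to 18.5 TPM in SNI and 10.6 TPM in sham. Tp63, the master regulator of stratified epithelium, averaged 0.0133 TPM in SNI and 0.0267 TPM in sham. The basal keratin Krt5 averaged 0.237 TPM in SNI and 0.873 TPM in sham, and Krt14, its partner, 1.17 and 0.313 TPM. The keratin Krt10 of differentiated epidermis averaged 2.40 TPM in SNI and 2.62 TPM in sham, and the desmosomal cadherin Dsg3 0.317 and 0.107 TPM. The regulatory protein Sfn had the largest share of the list sum, at 11.9 TPM in SNI and 5.31 TPM in sham, and Lgals7 averaged 0.317 and 0.0767 TPM. The authors' deposited table of higher genes held 3 of the 13, Sfn, Krt14 and Col17a1, against 3.63% of all genes with averages. The median log2 ratio of the list was 0.23, with 8 averages higher and 4 lower in SNI. This ratio adds 1 TPM to both averages and so understates changes of genes under 1 TPM. Without it the ratio of averages was 3.72 for Krt14, 4.11 for Col17a1 and 4.13 for Lgals7. It was 0.271 for Krt5 and 0.5 for Tp63. Such ratios rest on few reads, on average 2 in SNI and 0.333 in sham for Lgals7. The other 9 markers of this list have no averages and are not analysed here. In these bulk samples more cells of a type and more RNA per cell cannot be told apart.

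Of 22 simple epithelium markers, 5 were in the authors' deposited table of higher genes, among them Grhl1, Krt19, St14 and Krt20. The deposited table of lower genes held 0 of them. Of all genes with averages, 3.63% stood in the higher and 0.695% in the lower one. The median log2 ratio of the list was 0.06, but 11 of the 22 lay under 1 TPM in both groups, where the added 1 TPM holds ratios near 0. Grhl1, a transcription factor that drives epidermal genes, averaged 3.20 TPM in SNI and 0.817 TPM in sham. Keratin Krt19 rose to 6.88 ± 0.634 TPM in SNI, against 3.05 ± 0.577 TPM in sham (n = 3 each, log2 fold change 0.97, SE 0.12, limma adjusted p = 0.00011). Krt7 rose to 22.6 ± 2.48 TPM in SNI, against 12.45 ± 0.847 TPM in sham (limma adjusted p = 4.4e-05). The integrin subunit Itgb6 fell to 3.78 ± 0.255 TPM in SNI, against 5.81 ± 0.223 TPM in sham (limma adjusted p = 0.00069), and Itgb4 did not pass (190 ± 6.79 and 179 ± 9.39 TPM, limma adjusted p = 0.19). The defining markers of the list were mixed. E-cadherin (Cdh1) averaged 119 TPM in SNI and 130.3 TPM in sham, and the keratin Krt8 11.03 TPM in SNI and 11.01 TPM in sham. Epcam, Grhl2 and Krt18 were under 1 TPM in both groups (0.913, 0.41 and 0.133 TPM in SNI and 0.483, 0.593 and 0.0933 TPM in sham). Over these lists of relatives and markers, 10 genes outside the 6 could be tested, of which 4 were called higher, 5 lower and 1 not at all, beside 32.0% higher and 29.2% lower of all genes tested.

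**Figure D4:**
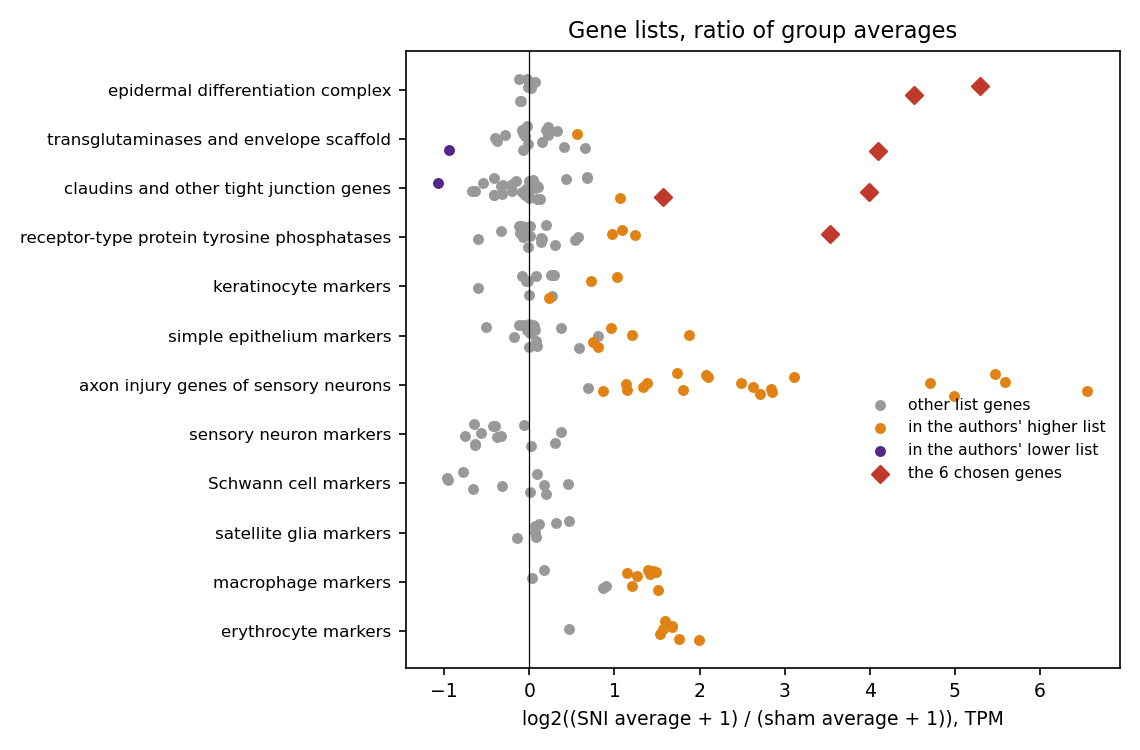
Log2 ratio of the group averages (TPM + 1, SNI over sham) for each gene of 12 lists, 1 list a line. Red diamonds are the 6 chosen genes, and orange and purple points are genes of the authors' higher and lower lists. The 6, which were chosen by their group averages, lie at 1.56 to 5.29, while most of their relatives in the same lists lie closer to the zero line. Genes under 1 TPM in both groups are held near that line by the added 1 TPM, whatever their fold.

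The closest neighbours of Tgm1, Cldn4, Cldn7 and Ptprh on their chromosomes, where they had averages, did not have ratios of the same size. With 5 protein-coding genes taken on each side in the GRCr8 order, the 9 neighbours of Tgm1 with averages had log2 ratios between −0.20 and 0.17 and the 9 of Cldn7 between −0.45 and 0.16. The 9 of Cldn4 lay between −0.96 and 0.39. Among them was Cldn3, the claudin next to Cldn4, which averaged 3.42 TPM in SNI and 5.43 TPM in sham. The lowest was elastin (Eln), in the authors' deposited table of lower genes, at 8.43 TPM in SNI and 17.3 TPM in sham. The 10 neighbours of Ptprh lay between −0.23 and 0.94, the highest being Dnaaf3, which the authors' deposited table held as higher (4.84 TPM in SNI and 2.05 TPM in sham). Few neighbours of Sprr1a and Lce1f had averages (1 and 2), so the same cannot be said for this pair. Near Lce1f, LOC103691634 had 1.75 TPM in SNI and 0.193 TPM in sham, a log2 ratio of 1.20, on averages of 5.93 and 0.667 reads.

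**Figure D5:**
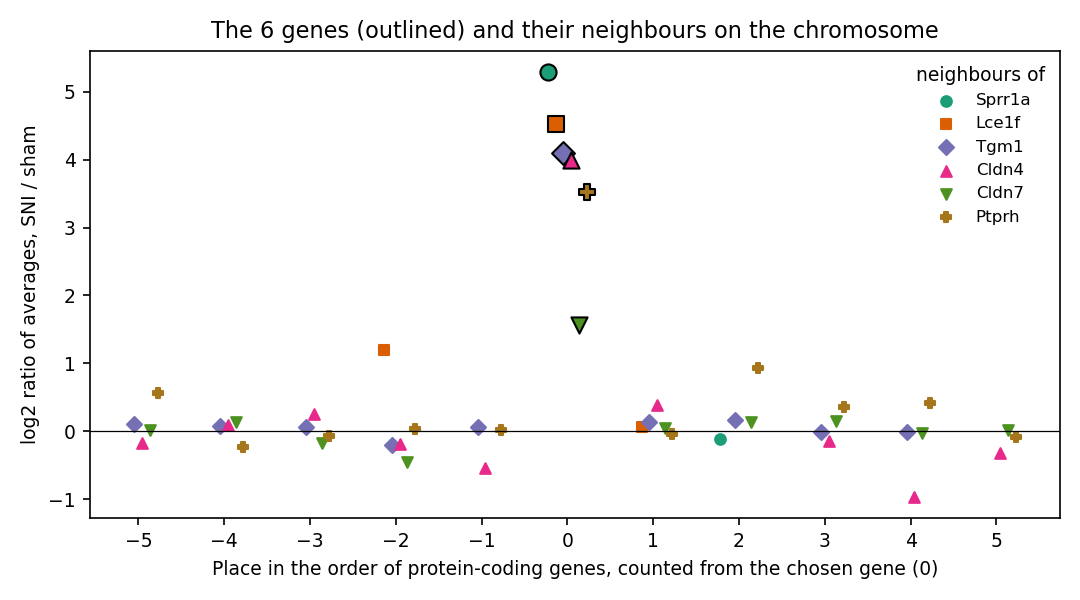
Log2 ratio of group averages (TPM + 1, SNI over sham) for the 6 genes (outlined, place 0) and for up to 5 protein-coding genes on each side, by their order on the chromosome. Symbols are shifted sideways within a place so that they can be told apart. The outlined genes lie at 1.56 to 5.29, and the neighbours reach at most 1.20.

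The genes outside the 6 that were most like them in level and group difference were found by the distance between log2(TPM + 1) values. Over the 6 libraries, the nearest such gene of the per-library table to each of Lce1f, Tgm1, Cldn4 and Ptprh was Alox15, an arachidonate lipoxygenase, at distances of 1.14, 0.91, 0.53 and 1.20. Alox15 had 19.72, 18.97 and 21.16 TPM in SNI, against 0.36, 0.34 and 0.86 TPM in sham. The next was the chemokine Cxcl14 for Lce1f, Tgm1 and Cldn4. Over the group averages of all genes outside the 6, the nearest to Sprr1a was Crisp3, with 46.4 TPM in SNI and 0.17 TPM in sham. The nearest to Cldn4 and to Lce1f was Ankrd1, a muscle ankyrin repeat protein, with 19.1 TPM in SNI and 0.37 TPM in sham. Fcrl2 was nearest to Tgm1 (24.5 and 0.537 TPM), the cytokine Il24 to Ptprh (12.6 and 0.29 TPM), and Car4, a carbonic anhydrase, to Cldn7 (1.87 and 0.117 TPM).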

How the data were processed

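The deposited values are, per the file headers, TPM in each library (1637 genes, between 25.8% and 27.1% of each library's total) and, for 18696 genes above 0 in both groups, average TPM and average estimated read count per group. Aligner, counter, genome build and strand setting were not given in the sources used here. The deposited estimated counts, averaged by the authors, gave whole reads over 3 libraries in 64.8% (SNI) and 65.4% (sham) of genes (tolerance 0.001), so sums over 3 libraries are estimates. They were rounded for the exact counting intervals (Poisson for sums, Clopper-Pearson for ratios). Columns named control were taken as sham, the other group of the labels.

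The 1596 genes whose mean reached 1 TPM were compared by limma 3.58.1 (R 4.3.3) on log2(TPM + 1) with an intensity trend and Benjamini-Hochberg adjustment, a script checked on simulated data. The scale understates changes of low genes. The per-library table is a selection by the authors. The 6 genes and the 12 lists were chosen with earlier results of these data known. Named list genes are those with the largest ratio or highest SNI average, defining cell type markers, the genes nearest in TPM, and those singled out after their values were seen (Col17a1, St14, Krt20, F13a1 and Itgb6, Cldn3, Eln, Dnaaf3 and LOC103691634, and the genes of the closing observations). One gene that the rule names is not reported here. Promoters and gene order come from RefSeq (GRCr8), and names matched by Gene ID. Other steps used Python 3.11.15, pandas 2.3.3, numpy 2.4.6, scipy 1.17.1 and matplotlib 3.10.9.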

Additional observations from a re-analysis of the deposited data

How the results depend on the processing

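Lce1f, Tgm1, Cldn4 and Ptprh kept a higher value in SNI under every alternative tried. Sprr1a and Cldn7 did so under those of pseudocount and unit, which were the ones that could be run for them. The genes were chosen by this contrast. Over the 4 with values per library, the lowest SNI value was 12.27 TPM (Ptprh) and the highest sham value 0.72 TPM (Tgm1). The direction was thus not put to a test, and only the size could vary. The size on the log2 scale depended on the pseudocount. With 0.1 TPM in place of 1, the log2 difference over libraries was 7.22 for Lce1f, 5.17 for Tgm1, 5.66 for Cldn4 and 5.34 for Ptprh, against 4.53, 4.10, 3.99 and 3.53. After quantile normalization it was 3.79 for Tgm1, 3.73 for Cldn4 and 3.30 for Ptprh. Leaving out 1 library at a time gave 4.46 to 4.67 for Lce1f, 4.08 to 4.12 for Tgm1, 3.95 to 4.03 for Cldn4 and 3.49 to 3.58 for Ptprh. For the group averages, the log2 ratio with 0.1 TPM was 7.76 for Sprr1a, 6.83 for Lce1f, 4.02 for Cldn7, 5.17 for Tgm1, 5.66 for Cldn4 and 5.32 for Ptprh. With no pseudocount it was 8.81 for Sprr1a, 7.72 for Lce1f, 5.36 for Tgm1, 6.08 for Cldn4, 5.95 for Cldn7 and 5.83 for Ptprh. From average reads with a pseudocount of 1 read, it was 7.498 for Sprr1a, 6.44 for Lce1f and 4.11 for Cldn7. With this pseudocount it was 4.72 for Tgm1, 5.82 for Cldn4 and 5.94 for Ptprh. It exceeds the sham averages of Sprr1a, Lce1f and Cldn7 (0.667, 0.667 and 0.333 reads), and so lowers their ratios. Of the genes in the 6 lists of relatives and markers, 4 were called higher and 5 lower, and 2 and 2 at a mean of at least 5 TPM, where fewer genes were tested; leaving out 1 library gave 3 to 4 higher and 4 to 5 lower. Over all genes 510 were called higher and 466 lower, with 445 to 524 and 387 to 477 when 1 library was left out, and 402 and 608 after quantile normalization. At least 1 TPM in a group left 199 genes with a ratio of averages of 4 or more, against 397. Same-numbered libraries had correlations of deviations of −0.09, −0.06 and 0.19, within the range of differently numbered ones (−0.29 to 0.29). With 3 libraries per group, these values cannot decide whether the numbers pair the libraries. With the replicate block 498 genes were called higher and 447 lower. The sham reads of Sprr1a, Lce1f and Cldn7 (2, 2 and 1) limit what can be said of their ratios.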

Other observations

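Of 18696 genes with averages, 4175 were under 1 TPM in sham, and 17 of these had at least 10 TPM in SNI. Among the 17 were 5 of the 6 epithelial genes (all but Cldn7). The 6 were chosen by the same averages, so this overlap is not a result about them. The other 12 were of mixed kinds. Hepcidin (Hamp), the iron hormone, averaged 117.6 TPM in SNI and 0.343 TPM in sham, and the protease inhibitor Serpina3n 132 TPM in SNI and 0.773 TPM in sham. The secreted lectins Reg3b and Reg3a averaged 93.8 and 12.5 TPM in SNI and 0.967 and 0.717 TPM in sham. The muscle genes Csrp3 and Ankrd1 averaged 71.8 and 19.1 TPM in SNI and 0.637 and 0.37 TPM in sham. The peptide urocortin (Ucn) averaged 22.6 TPM in SNI and 0.743 TPM in sham, and the cholecystokinin receptor Cckbr 10.9 TPM in SNI and 0.48 TPM in sham. Crisp3, Fcrl2, Alox15 and Il24 made up the rest.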
